A study of Mus musculus with 11 samples.

Results

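Voltage-gated potassium channels open when a cell depolarises and let potassium leave, which ends action potentials and sets how often a cell fires. They are assembled from 4 pore-forming alpha subunits, and auxiliary proteins set their trafficking and inactivation. The family was taken here as every gene measured whose symbol belongs to the Kcna, Kcnb, Kcnc, Kcnd, Kcnf, Kcng, Kcnh, Kcnq, Kcns or Kcnv alpha subunits, the Kcnab beta subunits or the Kcnip calcium-binding proteins, and this gave 43 genes of the 30142 named genes on the array. Each of the 43 had a single row. They comprised 8 Kcna, 1 Kcnb, 3 Kcnc, 3 Kcnd, 8 Kcnh and 3 Kcnq genes, 10 genes of the electrically silent groups (Kcnf, Kcng, Kcns and Kcnv, which form working channels only together with other subunits), 3 Kcnab and 4 Kcnip genes. Other genes of these families were not analysed here.

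RNA was compared between the carotid body (CB, 3 arrays), the adrenal medulla (AM, 4 arrays) and the superior cervical ganglion (SCG, 4 arrays) of wild-type C57B6 mice, with no treatment named, males and females together, at 2 months of age. The carotid body is the arterial organ whose glomus cells sense blood oxygen, the adrenal medulla releases adrenaline from chromaffin cells, and the ganglion holds sympathetic neurons. Each carotid body array carried RNA pooled from 10 mice, and each array of the other tissues RNA pooled from 3 mice. How mice were divided among pools is not given in the sources used here, so the spread between arrays is that between pools, and whole tissue was hybridised, in which fewer cells of a type and less RNA per cell cannot be told apart. In the carotid body, closure of potassium channels in low oxygen is part of how glomus cells are excited, and sympathetic neurons are known for the slow M-current that Kcnq channels carry and for the A-type current of Kcnd channels.

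All values are deposited log2 expression values, and a difference of 1 is a 2-fold difference on that scale. Values of different genes are not set against each other, since each gene has its own probes. A gene was called different between a pair of tissues at a limma adjusted p under 0.05 over all 30142 genes and a log2 difference of 1 or more either way. Background was judged from 540 vomeronasal receptor (Vmn1r, Vmn2r) and keratin-associated (Krtap) genes, assumed silent in these tissues. The 95th percentile of their tissue means, here called the bound, was 5.36 for adrenal medulla, 5.41 for carotid body and 5.45 for ganglion. Arrays of the lower tissue that lay under its bound were set to it before a fold was taken, those of the higher tissue were left as measured, and such folds are worded "at least".

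Marker genes of the tissues were read on every array. The mean over 8 chromaffin cell genes was 17.48 to 17.81 on the adrenal medulla arrays, and the mean over 13 neuron genes was 13.79 to 14.22 on the ganglion arrays. The mean over 7 glomus cell genes was 13.62 to 14.09 in carotid body, 14.07 to 14.29 in adrenal medulla and 10.22 to 10.38 in ganglion. Of these, carotid body had 3 called higher and 3 lower against adrenal medulla, and 5 higher and 1 lower against ganglion (4 in place of the first 3 without replicate 2). The shares of all genes called were 6.06% and 4.95%, and 5.61% and 8.28%, in that order. Th, which encodes tyrosine hydroxylase, averaged 17.69 in carotid body and was called lower there than in both other tissues (19.57 in adrenal medulla and 19.22 in ganglion). The adrenal medulla arrays also held the 10 adrenal cortex genes at a mean of 14.88 to 15.37, against 5.30 to 5.73 elsewhere. Of these, 10 of the 10 were called higher there than in both other tissues (2.45% of all genes). Within carotid body, the mean over the neuron genes was 11.82, 10.04 and 11.04 on replicates 1, 2 and 3. Replicate 3 of the carotid body held Tg (thyroglobulin, the thyroid hormone precursor) at 18.56, against 4.77 to 5.13 on the other 10 arrays, and replicate 2 held 8 skeletal muscle genes at a mean of 6.90, against 5.06 to 5.35 on the other 10. Counts of family, partner and marker genes in the carotid body comparisons were also taken without each of those 2 arrays, and are given where they changed.

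Of the 43 genes, 28 lay above the background bound in at least 1 tissue, 22 in all 3 and 15 in none, and 25 lay above it in each tissue taken singly. That was 58.1% in each tissue, near the 54.1%, 56.0% and 54.2% of all genes in adrenal medulla, carotid body and ganglion. In at least 1 tissue, 17648 of all 30142 genes lay above it. At the 99th percentile of the silent genes instead of the 95th, 12, 16 and 21 remained above the bound in adrenal medulla, carotid body and ganglion. A total of 19 were called in at least 1 comparison, against 21.6% of all genes tested. All 19 were among the 28 above the bound in at least 1 tissue. Counting both directions, 9 of these 28 differed between carotid body and adrenal medulla, 17 between carotid body and ganglion and 18 between adrenal medulla and ganglion. Of the 17648 genes of the array above the bound in at least 1 tissue, 18.7%, 23.7% and 22.5% were called. Set against adrenal medulla, carotid body had 7 genes called higher and 2 called lower, where 6.06% and 4.95% of all genes were called. Without carotid body replicate 2 the counts were 10 and 2, and without replicate 3 they were 8 and 2. Between carotid body and ganglion, 2 were higher and 15 lower in carotid body (all genes: 5.61% and 8.28%), with 14 lower without carotid body replicate 2 and 13 without replicate 3. Between adrenal medulla and ganglion, 1 was higher and 17 lower in adrenal medulla (all genes: 5.72% and 7.50%), with 2 higher without ganglion replicate 1 or 4. The 3 comparisons share arrays in pairs.

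**Figure D1:**
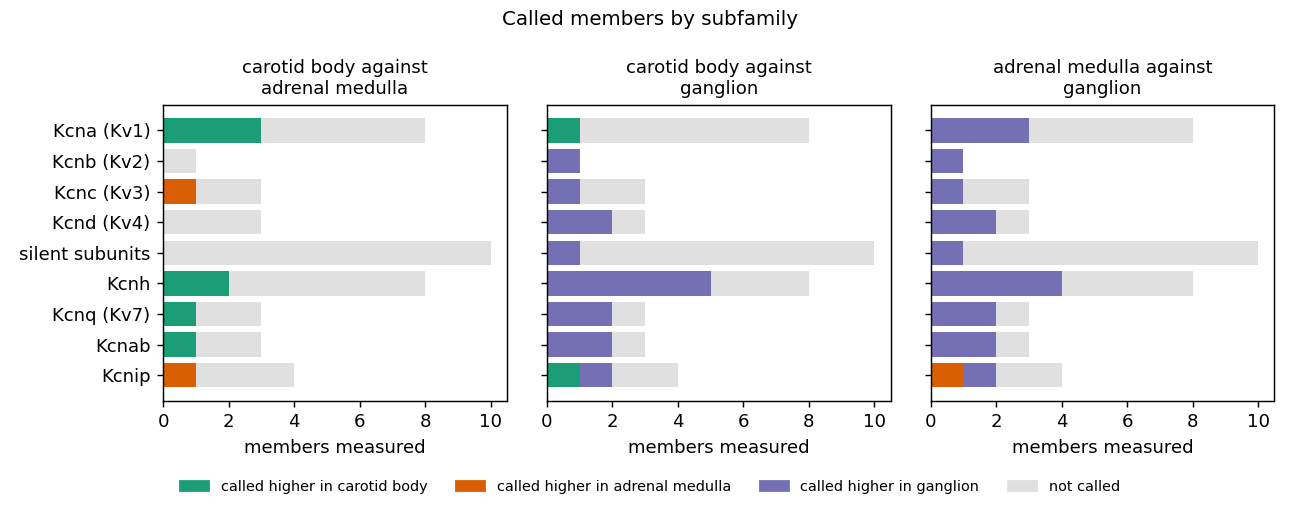
Number of genes measured in each subfamily (bar length), with those called higher in carotid body in green, in adrenal medulla in orange and in ganglion in violet, and those not called in grey, for the 3 tissue comparisons. Against ganglion nearly all coloured segments are violet, with 15 genes lower in carotid body and 17 lower in adrenal medulla, while the Kcna group holds 3 genes higher in carotid body than in the adrenal medulla and 1 higher than in the ganglion.

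The pattern over the family was that ganglion held the highest value of most genes that differed. A total of 14 genes were called higher in ganglion than in both other tissues (5.07% of all genes), namely Kcnb2, Kcnc4, Kcnd1, Kcnd2, Kcng4, Kcnh1, Kcnh5, Kcnh7, Kcnh8, Kcnq3, Kcnq5, Kcnab1, Kcnab2 and Kcnip4. This count was 12 without carotid body replicate 3, and 13 without carotid body replicate 2 or without ganglion replicate 2, 3 or 4. Kcna1 was called highest in carotid body (2.42% of all genes) and Kcnip3 highest in adrenal medulla (2.45%). All 7 genes called higher in carotid body than in the adrenal medulla were called higher in ganglion as well when set against it, so that adrenal medulla was the lowest of the tissues for them (2.68% of all genes). These were Kcna1, Kcna2, Kcna6, Kcnab1, Kcnh7, Kcnh8 and Kcnq5. Both sets of calls use the adrenal medulla arrays.

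**Figure D2:**
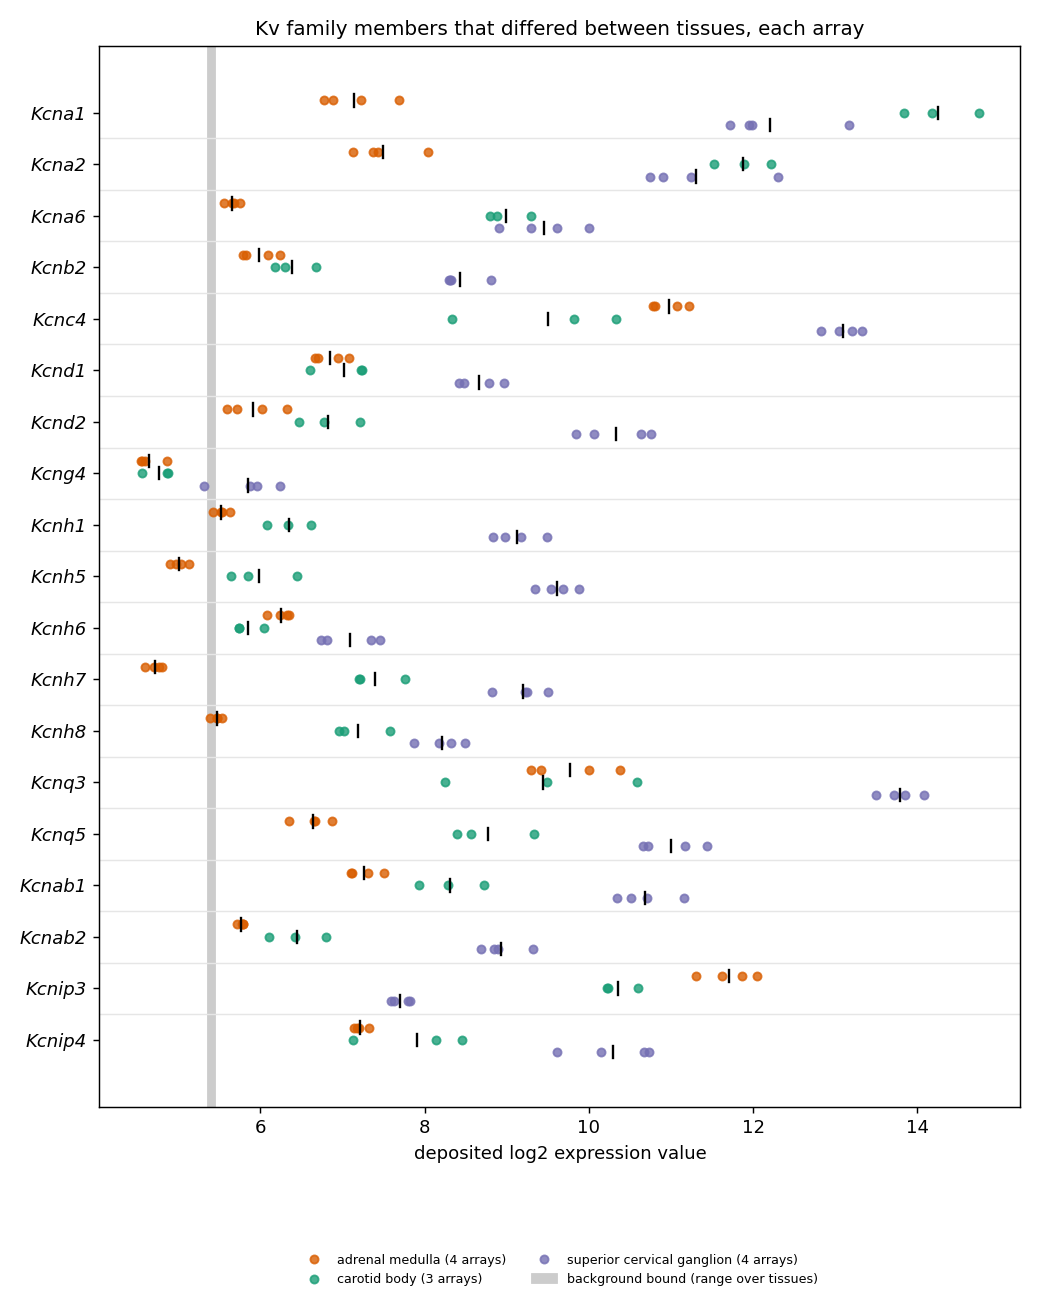
Deposited log2 value of the 19 genes called in at least 1 comparison, on each of the 4 adrenal medulla (orange), 3 carotid body (green) and 4 ganglion arrays (violet); black ticks are tissue means and the grey band spans the background bounds of 5.36 to 5.45. Ganglion lies rightmost for most genes, carotid body for Kcna1 (14.25) and adrenal medulla for Kcnip3 (11.71).

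The Kcna genes encode the Kv1 channels, low-threshold channels of axons and of many small cells. Kcna1 showed the widest gap of the family. It measured 6.88, 6.77, 7.69 and 7.22 on the adrenal medulla arrays (replicates 1 to 4), 14.74, 14.18 and 13.83 on the carotid body arrays and 11.72, 11.99, 13.16 and 11.94 on the ganglion arrays. The tissues did not overlap, and even the lowest carotid body array exceeded the highest ganglion array. Carotid body was 138-fold above adrenal medulla (log2 difference 7.11, SE 0.35, limma adjusted p = 1.45e-07) and 4.14-fold above ganglion (2.05, SE 0.35, limma adjusted p = 0.000903). Adrenal medulla was 33.3-fold below ganglion (-5.06, limma adjusted p = 4.47e-07). Leaving out any 1 array kept the difference from ganglion between 1.80 and 2.37, and the one from adrenal medulla between 6.86 and 7.32.

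Kcna2, which forms channels together with Kcna1 along axons, measured 7.13, 7.37, 8.04 and 7.44 on the adrenal medulla arrays, 12.21, 11.88 and 11.52 on the carotid body arrays and 10.75, 11.24, 12.31 and 10.90 on the ganglion arrays. Adrenal medulla stood apart, while carotid body and ganglion overlapped. Kcna2 was 20.8-fold higher in carotid body than in the adrenal medulla (4.38, SE 0.35, limma adjusted p = 4.48e-06) and 14.0-fold higher in ganglion than in the adrenal medulla (AM minus SCG -3.81, limma adjusted p = 4.04e-06). The difference of 0.57 (SE 0.35) between carotid body and ganglion was not called (limma adjusted p = 0.255).

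Kcna6, another delayed rectifier of this group, repeated that arrangement. It measured 5.55, 5.67, 5.65 and 5.75 in adrenal medulla, just above the background bound, 9.30, 8.88 and 8.79 in carotid body and 9.30, 9.61, 10.00 and 8.90 in ganglion. It was 10.1-fold higher in carotid body than in the adrenal medulla (3.33, SE 0.22, limma adjusted p = 1.06e-06) and lower in adrenal medulla than in the ganglion by 13.9-fold (-3.79, SE 0.20, limma adjusted p = 9.93e-08). Carotid body and ganglion overlapped, at a difference of -0.46 that was not called (limma adjusted p = 0.14).

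The other 5 Kcna genes were not called anywhere. Kcna5, a channel of vascular smooth muscle, averaged 7.75 ± 0.04 (SD, n = 4) in adrenal medulla, 8.10 ± 0.41 (n = 3) in carotid body and 7.93 ± 0.24 (n = 4) in the ganglion, and its largest difference was 0.34. The smooth muscle and pericyte genes had means of 8.37 to 8.52, 10.89 to 11.39 and at most 7.08 on the arrays of these tissues. Kcna3, which is abundant in lymphocytes, averaged 7.63, 7.51 and 7.57. The mean over 7 T cell markers was 4.81 to 5.02 on every array. That over 8 macrophage genes was higher, with a lowest array at 7.95 (ganglion) and a highest at 9.49 (adrenal medulla). The part of smooth muscle, T cells and macrophages in the Kcna5 and Kcna3 values was not tested. Kcna4, Kcna7 and Kcna10 lay under the bound in all 3 tissues. The median difference over the 8 Kcna genes was 0.26 for carotid body minus adrenal medulla, -0.01 for carotid body minus ganglion and -0.18 for adrenal medulla minus ganglion, against 0.05, -0.02 and -0.08 over all genes.

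In the RefSeq gene order of the mouse assembly GRCm38.p6, 6 of these genes lie in clusters, with Kcna5, Kcna1 and Kcna6 in a row on chromosome 6 and Kcna3, Kcna2 and Kcna10 in a row on chromosome 3 among protein-coding genes. Differences were unequal within each cluster, with no test of one gene against another. On chromosome 6 the carotid body minus adrenal medulla difference was 7.11 for Kcna1 and 3.33 for Kcna6 but 0.34 for Kcna5, and on chromosome 3 it was 4.38 for Kcna2 but -0.12 for Kcna3 and 0.06 for Kcna10, which was under the bound. AI504432, a long non-coding RNA gene between Kcna3 and Kcna2, was not called (tissue means 6.55 in adrenal medulla, 5.87 in the carotid body and 6.85 in the ganglion). The promoters of 1 gene that differed and of 1 neighbour that did not are shown for each cluster, so that the letters before each start can be compared. They run from 250 bases before to 50 bases after the annotated start, as given by RefSeq for GRCm38.p6, 5′ to 3′ on the gene's strand. They span chr3:107101317-107101616 (plus strand) for Kcna2, chr3:107035912-107036211 (plus) for Kcna3, chr6:126740625-126740924 (minus) for Kcna6 and chr6:126535506-126535805 (minus) for Kcna5. Capitals mark every match, on either strand, to the GC box GGGCGG, the TATA box TATAAA, the SOX core ACAAAG, the cyclic AMP response element core TGACG and the hypoxia response element core ACGTG.
Kcna2: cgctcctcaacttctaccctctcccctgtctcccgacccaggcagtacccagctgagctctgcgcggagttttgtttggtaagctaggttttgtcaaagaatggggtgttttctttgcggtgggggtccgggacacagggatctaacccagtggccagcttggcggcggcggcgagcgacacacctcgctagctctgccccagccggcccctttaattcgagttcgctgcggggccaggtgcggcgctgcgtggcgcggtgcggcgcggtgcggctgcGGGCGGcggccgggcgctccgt
Kcna3: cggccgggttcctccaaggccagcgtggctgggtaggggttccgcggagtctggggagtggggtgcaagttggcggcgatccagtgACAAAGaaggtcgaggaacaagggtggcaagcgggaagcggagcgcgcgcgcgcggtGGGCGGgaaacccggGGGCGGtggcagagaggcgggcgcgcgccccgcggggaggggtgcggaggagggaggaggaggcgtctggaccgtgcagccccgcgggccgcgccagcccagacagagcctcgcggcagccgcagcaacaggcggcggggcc
Kcna6: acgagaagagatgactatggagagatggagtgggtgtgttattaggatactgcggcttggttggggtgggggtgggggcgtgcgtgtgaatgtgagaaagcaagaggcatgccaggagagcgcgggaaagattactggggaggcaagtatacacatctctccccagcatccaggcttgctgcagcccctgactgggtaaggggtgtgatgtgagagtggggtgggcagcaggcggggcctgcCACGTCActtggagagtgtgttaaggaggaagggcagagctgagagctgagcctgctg
Kcna5: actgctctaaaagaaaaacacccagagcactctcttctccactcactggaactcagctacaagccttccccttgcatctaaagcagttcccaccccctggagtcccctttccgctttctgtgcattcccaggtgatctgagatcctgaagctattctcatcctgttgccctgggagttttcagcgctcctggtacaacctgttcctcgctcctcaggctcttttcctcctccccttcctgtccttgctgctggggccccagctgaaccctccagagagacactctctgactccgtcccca

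Both chromosome 3 promoters were rich in G and C, at 66.7% for Kcna2 with 31 CpG dinucleotides and at 75.0% for Kcna3 with 37, against medians of 52.7% and 7 over 32851 promoters of 300 bases. Kcna2 held 1 GC box and Kcna3 held 2, a motif present in 35.7% of all promoters, and Kcna3 also held a SOX core (18.7%). Kcna6 had 58.3% G and C and 8 CpG, with 1 match each to the cyclic AMP element core (20.8%) and the hypoxia element core (19.6%), which overlap in it. Kcna5 had 55.0% G and C and 4 CpG, with no match to any of the 5 motifs. The TATA box, found in 13.6% of all promoters, was absent from these 4 windows. These matches describe letters only, and none of them separated both genes that differed from both neighbours. A promoter of Kcna1 was not used here.

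The 3 genes that differed shared their highest ganglion array. Ganglion replicate 3 held the highest ganglion value of Kcna1, Kcna2 and Kcna6, as it did for 5 of 10 glia and Schwann cell markers and for 12.7% of all genes. This array was singled out after the values of the 3 genes were seen, so their match was fixed by that choice. The mean over these glia markers was 8.80, 9.11, 9.22 and 8.75 on ganglion replicates 1 to 4, whereas carotid body replicates 1 to 3 had 9.23, 8.97 and 8.93 and it was 7.02 to 7.17 on the adrenal medulla arrays. Of the 10 glia markers 6 were called higher in carotid body than in the adrenal medulla (6.06% of all genes), 1 was called lower in carotid body than in the ganglion (8.28%), and 6 were called lower in adrenal medulla than in the ganglion (7.50%). Without carotid body replicate 3, 1 glia marker was also called higher in carotid body than in the ganglion. Most markers of 3 further cell types were called higher in carotid body against both other tissues, as Kcna1 was. These were 8 of 8 fibroblast genes against each tissue (median differences 5.37 from adrenal medulla and 3.98 from ganglion), 8 and 9 of 11 smooth muscle and pericyte genes (2.49 and 3.43, with 10 in place of 9 without carotid body replicate 3) and 5 of 6 adipocyte genes against each (4.08 and 2.86). Of all genes, 6.06% were called higher in carotid body than in the adrenal medulla and 5.61% higher than in the ganglion. The part of glia, fibroblasts, smooth muscle and adipocytes in the Kcna differences was not tested.

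**Figure D3:**
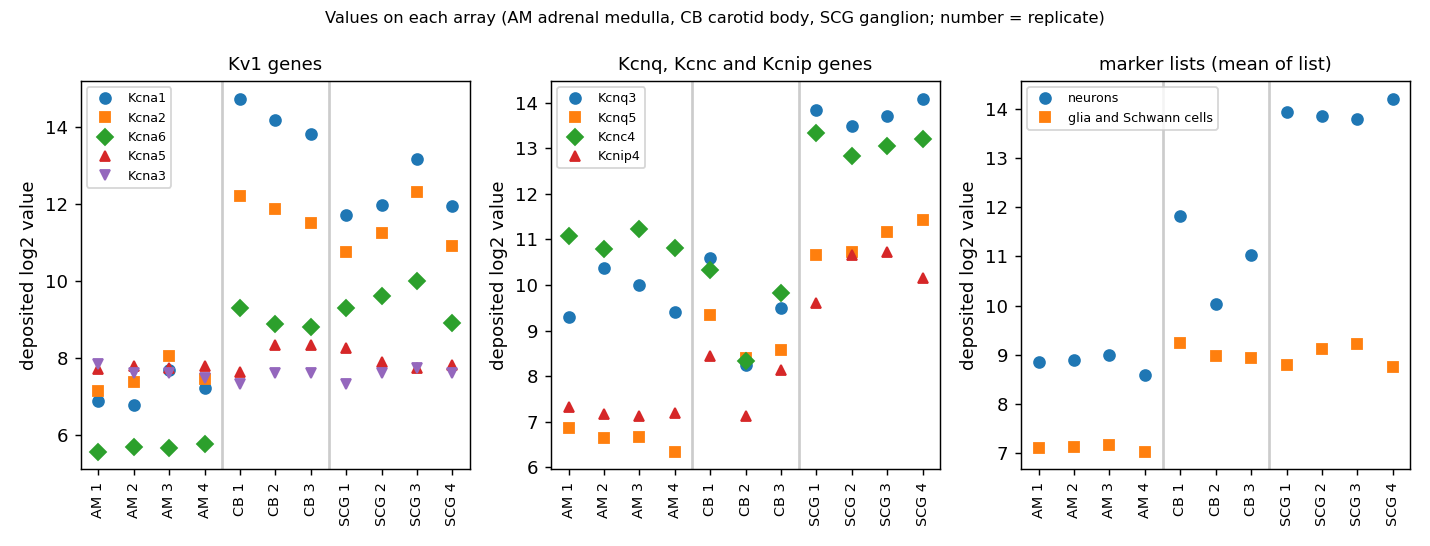
Deposited log2 values on each array, with tissues separated by grey lines (adrenal medulla AM, carotid body CB, ganglion SCG, numbered by replicate): Kcna genes at left, Kcnq3, Kcnq5, Kcnc4 and Kcnip4 in the middle, and the mean of the neuron and glia marker lists at right. Kcna1, Kcna2 and Kcna6 are high in both carotid body and ganglion while Kcna5 and Kcna3 stay level, and the genes in the middle have their lowest carotid body value on carotid body replicate 2, where the neuron mean was 10.04.

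The Kcnab genes encode the cytoplasmic beta subunits that bind Kv1 channels. Of the 3, 2 were called highest in ganglion (all genes: 5.07%). Kcnab1, whose protein speeds inactivation, measured 7.31, 7.10, 7.51 and 7.12 in adrenal medulla, 8.72, 7.93 and 8.28 in carotid body and 10.71, 10.34, 10.51 and 11.16 in ganglion, with no overlap between tissues. Carotid body was 5.16-fold below ganglion (-2.37, SE 0.22, limma adjusted p = 1.15e-05) and adrenal medulla 10.7-fold below it (-3.42, SE 0.20, limma adjusted p = 2.10e-07). Its difference of 1.05 between carotid body and adrenal medulla (SE 0.22, limma adjusted p = 0.00364) lay at the limit and was 0.85 without carotid body replicate 1, 0.90 after median centring and just under 1 without adrenal medulla replicate 2, none of which was called. Kcnab2, the commonest beta subunit of brain, measured 5.77, 5.79, 5.79 and 5.72 in adrenal medulla, 6.80, 6.10 and 6.42 in carotid body and 8.84, 8.69, 8.89 and 9.31 in ganglion. Ganglion stood above both others without overlap, by 5.63-fold over carotid body (CB minus SCG -2.49, SE 0.17, limma adjusted p = 1.63e-06) and 8.96-fold over adrenal medulla (AM minus SCG -3.16, SE 0.16, limma adjusted p = 5.52e-08). Kcnab3 lay under the bound in all 3 tissues.

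The Kcnq genes encode the Kv7 channels, and Kcnq3 and Kcnq5 are subunits of the M-channel that damps firing of sympathetic neurons. Both were highest in ganglion. Kcnq3 measured 9.30, 10.37, 10.00 and 9.41 in adrenal medulla, 10.59, 8.24 and 9.49 in carotid body and 13.84, 13.49, 13.71 and 14.09 in ganglion. Carotid body and adrenal medulla overlapped (difference -0.33, SE 0.46, limma adjusted p = 0.645), and ganglion stood 20.3-fold above carotid body (CB minus SCG -4.34, SE 0.46, limma adjusted p = 2.87e-05) and 16.1-fold above adrenal medulla (AM minus SCG -4.01, SE 0.42, limma adjusted p = 2.17e-05). The difference from carotid body ranged from -4.92 to -3.74 when single arrays were left out.

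Kcnq5 separated all 3 tissues. It measured 6.88, 6.66, 6.66 and 6.34 in adrenal medulla, 9.33, 8.40 and 8.57 in carotid body and 10.66, 10.72, 11.17 and 11.44 in ganglion. Carotid body was 4.38-fold above adrenal medulla (2.13, SE 0.25, limma adjusted p = 7.47e-05) and 4.69-fold below ganglion (-2.23, SE 0.25, limma adjusted p = 4.22e-05), and adrenal medulla was 20.6-fold below ganglion (-4.36, SE 0.23, limma adjusted p = 9.00e-08). Kcnq1, a subunit of epithelial and heart channels, was not called and averaged 5.75 ± 0.19 in adrenal medulla, 5.46 ± 0.05 in the carotid body and 5.36 ± 0.07 in the ganglion, close to the bound.

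The Kcnd genes encode the Kv4 channels, which carry the fast A-type current, and Kcnip proteins bind them and raise their number at the membrane. Kcnd2 measured 5.71, 5.60, 6.32 and 6.02 in adrenal medulla, 7.22, 6.47 and 6.77 in carotid body and 10.64, 9.84, 10.06 and 10.76 in ganglion. Ganglion was 11.4-fold above carotid body (CB minus SCG -3.51, SE 0.26, limma adjusted p = 3.13e-06) and 21.3-fold above adrenal medulla (AM minus SCG -4.41, SE 0.24, limma adjusted p = 1.24e-07). The difference between carotid body and adrenal medulla was 0.90 and not called, though it was called at 1.04 without adrenal medulla replicate 3 and at 1.08 without carotid body replicate 2. Kcnd1 measured 7.08, 6.70, 6.94 and 6.66 in adrenal medulla, 7.24, 6.60 and 7.23 in carotid body and 8.79, 8.42, 8.48 and 8.97 in ganglion, so carotid body and adrenal medulla overlapped and ganglion stood apart. Carotid body was 3.11-fold below ganglion (-1.64, SE 0.19, limma adjusted p = 5.47e-05) and adrenal medulla 3.52-fold below it (-1.82, SE 0.18, limma adjusted p = 1.08e-05). Kcnd3 was not called and averaged 5.89 ± 0.08 in adrenal medulla, with carotid body (5.33) and ganglion (5.39) under the bound.

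The Kcnip genes went opposite ways. Kcnip3, whose protein (also called DREAM or calsenilin) binds Kv4 channels and can repress transcription, was the 1 gene of the 43 called highest in adrenal medulla, joined by Kcnip1 after median centring or quantile normalization. It measured 11.86, 11.62, 12.05 and 11.30 in adrenal medulla, 10.60, 10.24 and 10.22 in carotid body and 7.63, 7.82, 7.79 and 7.58 in ganglion, with no overlap between tissues. Adrenal medulla was 16-fold above ganglion (4.00, SE 0.15, limma adjusted p = 9.11e-09), carotid body was 6.26-fold above ganglion (2.65, SE 0.17, limma adjusted p = 9.85e-07), and carotid body was lower than adrenal medulla by 2.56-fold (-1.36, SE 0.17, limma adjusted p = 0.000111). Adrenal cortex markers were high on the same adrenal medulla arrays (mean 14.88 to 15.37, against 5.30 to 5.73 in the other tissues), and their part in these differences was not tested.

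Kcnip4, another Kv4 partner, ran the other way. It measured 7.33, 7.17, 7.13 and 7.20 in adrenal medulla, 8.45, 7.12 and 8.13 in carotid body and 9.61, 10.67, 10.73 and 10.14 in ganglion. Ganglion stood apart, 5.22-fold above carotid body (CB minus SCG -2.38, SE 0.32, limma adjusted p = 0.00016) and 8.46-fold above adrenal medulla (AM minus SCG -3.08, SE 0.30, limma adjusted p = 1.08e-05). Carotid body overlapped adrenal medulla through replicate 2, and the difference of 0.70 was not called but reached 1.09 and a call without that array. Kcnip1 fell just short of the size limit. It averaged 6.26 ± 0.09 in adrenal medulla and lay under the bound in carotid body (5.29) and ganglion (5.31), with a difference of -0.97 for carotid body minus adrenal medulla (limma adjusted p = 4.10e-05) and 0.95 for adrenal medulla minus ganglion (limma adjusted p = 1.54e-05). After median centring these were -1.12 and 1.04, after quantile normalization -1.09 and 1.03, and both were then called. Without adrenal medulla replicate 2 or carotid body replicate 2 the first was called just past the limit, and without ganglion replicate 1 or 4 so was the second. Kcnip2 lay under the bound throughout.

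**Figure D4:**
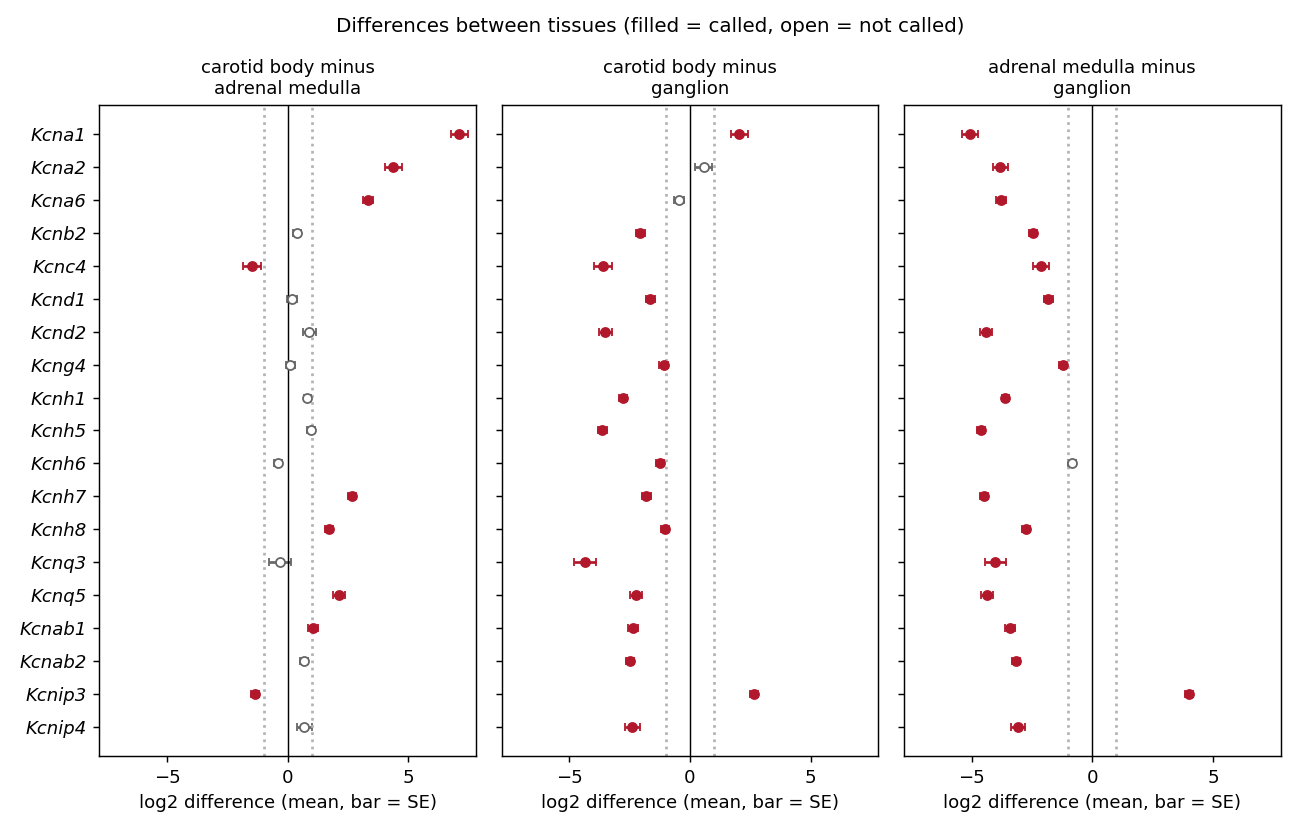
Log2 difference with its standard error for the 19 genes in the 3 comparisons (left, carotid body minus adrenal medulla; middle, carotid body minus ganglion; right, adrenal medulla minus ganglion), filled red where called and open grey where not, with dotted lines at -1 and 1. In the middle panel Kcna1 (2.05) and Kcnip3 (2.65) are the called genes to the right of 0, and in the right panel Kcnip3 (4.00) alone is.

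Kcnc4 encodes a fast-inactivating Kv3 channel, and Kcnb2 a Kv2 delayed rectifier. Kcnc4 measured 11.07, 10.78, 11.22 and 10.81 in adrenal medulla, 10.33, 8.34 and 9.82 in carotid body and 13.33, 12.82, 13.04 and 13.20 in ganglion. The tissues did not overlap, and carotid body was the lowest, by 12.1-fold against ganglion (-3.60, SE 0.37, limma adjusted p = 2.50e-05) and 2.78-fold against adrenal medulla (-1.48, SE 0.37, limma adjusted p = 0.0113). The second of these rested on carotid body replicate 2, without which the difference was -0.90 and not called. Adrenal medulla lay 4.36-fold below ganglion (-2.13, SE 0.34, limma adjusted p = 0.000536). The other Kcnc genes measured, Kcnc1 and Kcnc2, lay under the bound in all 3 tissues.

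Kcnb2 measured 5.82, 6.24, 6.10 and 5.79 in adrenal medulla, 6.68, 6.17 and 6.30 in carotid body and 8.29, 8.32, 8.31 and 8.81 in ganglion. Ganglion stood apart, and the others overlapped. Carotid body was 4.14-fold below ganglion (-2.05, SE 0.17, limma adjusted p = 6.40e-06) and adrenal medulla 5.45-fold below it (-2.45, SE 0.16, limma adjusted p = 4.47e-07). Of the 10 silent subunits, which mostly pair with Kv2 channels, 7 lay under the bound in all 3 tissues. Kcng4 was the silent subunit that was called. It measured 4.60, 4.56, 4.87 and 4.55 in adrenal medulla, 4.87, 4.86 and 4.55 in carotid body and 5.87, 5.95, 5.31 and 6.24 in ganglion. Ganglion thus lay above background on 3 of 4 arrays, at least 1.36-fold over carotid body (CB minus SCG -1.08, SE 0.19, limma adjusted p = 0.000946) and at least 1.40-fold over adrenal medulla (AM minus SCG -1.20, SE 0.17, limma adjusted p = 0.000245). The call against carotid body was lost without carotid body replicate 3 (-0.98) or ganglion replicate 4 (-0.95). Kcng3 was not called, at 5.98 ± 0.07 in adrenal medulla, 6.35 ± 0.22 in the carotid body and 5.91 ± 0.11 in the ganglion.

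The Kcnh genes encode the ether-a-go-go channels in their EAG (Kcnh1 and Kcnh5), ERG (Kcnh2, Kcnh6 and Kcnh7) and ELK (Kcnh3, Kcnh4 and Kcnh8) branches. Of these 8 genes, 5 were called lower in carotid body than in the ganglion and 4 lower in adrenal medulla than in the ganglion (all genes: 8.28% and 7.50%), and none was called higher in either. Without carotid body replicate 2 or 3 the first count was 4, since Kcnh8 was lost, and the count of Kcnh genes higher in carotid body than in the adrenal medulla was 3 in place of 2, since Kcnh5 was gained. Their median difference was -1.14 for carotid body minus ganglion and -1.79 for adrenal medulla minus ganglion, against -0.02 and -0.08 over all genes. Kcnh1 measured 5.42, 5.52, 5.53 and 5.63 in adrenal medulla, 6.62, 6.08 and 6.33 in carotid body and 9.18, 8.84, 8.98 and 9.49 in ganglion. Ganglion was 6.84-fold above carotid body (CB minus SCG -2.77, SE 0.16, limma adjusted p = 5.32e-07) and 12.1-fold above adrenal medulla (AM minus SCG -3.60, SE 0.15, limma adjusted p = 1.42e-08). Kcnh5 measured 5.03, 5.12, 4.98 and 4.90 in adrenal medulla, all under the bound, 6.44, 5.65 and 5.85 in carotid body and 9.54, 9.34, 9.69 and 9.88 in ganglion. It was 12.4-fold higher in ganglion than in carotid body (CB minus SCG -3.63, SE 0.18, limma adjusted p = 1.90e-07) and at least 19.1-fold higher than in the adrenal medulla (AM minus SCG -4.60, SE 0.17, limma adjusted p = 6.70e-09). Both EAG genes thus had the 3 tissues in the same order without overlap, as did Kcnh7, Kcnh8, Kcnq5, Kcnd2, Kcnab1 and Kcnab2. The share of all genes arranged so was not taken. The differences of Kcnh1 and Kcnh5 between carotid body and adrenal medulla, 0.82 and 0.97, were under the size limit. That of Kcnh5 was called at 1.01 without adrenal medulla replicate 2, 1.14 without carotid body replicate 2 and 1.04 without carotid body replicate 3.

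Within the ERG branch the genes differed from one another. Kcnh7 measured 4.80, 4.59, 4.76 and 4.70 in adrenal medulla, under the bound, 7.76, 7.20 and 7.22 in carotid body and 9.24, 8.81, 9.22 and 9.50 in ganglion. It was at least 4.10-fold higher in carotid body than in the adrenal medulla (2.68, SE 0.17, limma adjusted p = 8.61e-07), 3.48-fold lower in carotid body than in the ganglion (-1.80, SE 0.17, limma adjusted p = 1.39e-05) and at least 14.3-fold lower in adrenal medulla than in the ganglion (-4.48, SE 0.16, limma adjusted p = 5.75e-09). Kcnh6 measured 6.24, 6.08, 6.34 and 6.33 in adrenal medulla, 6.05, 5.74 and 5.74 in carotid body and 7.35, 6.81, 6.73 and 7.46 in ganglion, and the one call was that against carotid body (CB minus SCG -1.24, SE 0.18, 2.37-fold, limma adjusted p = 0.000241). Kcnh2, the ERG channel of heart repolarisation, was above background everywhere and was not called. It averaged 8.75 ± 0.25 in adrenal medulla, 7.91 ± 0.12 in the carotid body and 8.38 ± 0.15 in the ganglion, and its largest difference was -0.85 (limma adjusted p = 0.000759), under the size limit.

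In the ELK branch, Kcnh8 measured 5.47, 5.39, 5.53 and 5.48 in adrenal medulla, 7.58, 7.02 and 6.96 in carotid body and 8.17, 8.49, 8.32 and 7.88 in ganglion, without overlap. It was 3.29-fold higher in carotid body than in the adrenal medulla (1.72, SE 0.17, limma adjusted p = 1.93e-05) and 6.72-fold lower in adrenal medulla than in the ganglion (-2.75, SE 0.15, limma adjusted p = 1.44e-07). Its difference of -1.03 between carotid body and ganglion (limma adjusted p = 0.000573) lost the call without carotid body replicate 2 (-0.95) or 3 (-0.92), without ganglion replicate 2 (-0.94) or 3 (-0.99) and after quantile normalization (-0.95). Kcnh3 was not called, with tissue means from 5.84 to 6.11, and Kcnh4 lay under the bound.

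Many genes that were highest in ganglion also differed among the carotid body arrays. Of the 14 genes called highest in ganglion, 12 had their highest carotid body value on replicate 1 and their lowest on replicate 2, as did 11 of the 13 neuron markers and 14.4% of all genes. Of the 5 other called genes (Kcna1, Kcna2, Kcna6, Kcnh6 and Kcnip3), 1 did so, which was Kcnh6. The order rested on near ties in Kcnh6 (5.74 on both replicates 2 and 3) and Kcnh7 (7.20 and 7.22 on these). It did so too in Kcnd1 (7.24 and 7.23 on replicates 1 and 3). The spread over the carotid body arrays was widest for Kcnq3 (SD 1.17) and Kcnc4 (SD 1.04). Of the 13 neuron markers 7 were called higher in carotid body than in the adrenal medulla (6.06% of all genes), 12 lower in carotid body than in the ganglion (8.28%) and 12 lower in adrenal medulla than in the ganglion (7.50%). The first of these counts was 8 without carotid body replicate 2 and 6 without replicate 3, and the second was 12 and 13. The part of neuronal RNA in these channel differences was not tested.

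Proteins that place, anchor or assist Kv channels formed a list of partners, of which 23 were measured. In carotid body against adrenal medulla 4 were called higher and 2 lower, against ganglion it was 1 higher and 6 lower, and in adrenal medulla against ganglion 1 higher and 8 lower. The shares of all genes called were 6.06% and 4.95%, 5.61% and 8.28%, and 5.72% and 7.50%, in that order. Without carotid body replicate 2 the carotid body counts were 5 and 2 against adrenal medulla and 0 and 6 against ganglion, and without replicate 3 they were 4 and 2, and 0 and 7. The median differences over the 23 were 0.12, -0.13 and -0.26. Cntnap2 (Caspr2, which clusters Kv1 channels beside the node of Ranvier) measured 5.86, 5.96, 5.83 and 5.81 in adrenal medulla, 9.43, 7.20 and 8.19 in carotid body and 12.48, 11.73, 12.19 and 12.68 in ganglion. It was 5.32-fold higher in carotid body than in the adrenal medulla (2.41, limma adjusted p = 0.00108), 16-fold lower in carotid body than in the ganglion (-4.00, limma adjusted p = 2.52e-05) and 84.9-fold lower in adrenal medulla than in the ganglion (-6.41, limma adjusted p = 2.32e-07). Cntnap2 was therefore highest in ganglion, whereas Kcna1 was highest in carotid body.

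Lgi1 is a secreted protein that binds Adam22 and Adam23 at Kv1 channels, and the 3 genes were not arranged alike. Adam23 measured 9.31, 8.71, 9.13 and 8.95 in adrenal medulla, 13.36, 12.44 and 12.49 in carotid body and 12.37, 12.87, 13.09 and 12.44 in ganglion. It was 13.4-fold higher in carotid body than in the adrenal medulla (3.74, limma adjusted p = 1.27e-06), and carotid body and ganglion overlapped (difference 0.07, limma adjusted p = 0.864). Adam22 instead was 2.78-fold lower in carotid body than in the ganglion (-1.48, limma adjusted p = 1.93e-05), and its difference of 0.77 from adrenal medulla was not called. Lgi1 was 3.04-fold higher in carotid body than in the adrenal medulla (1.60, limma adjusted p = 7.01e-06) and 1.25-fold above ganglion without a call, and Ank3, the axonal anchor ankyrin-G, was 3.00-fold higher in carotid body than in the adrenal medulla (1.59, limma adjusted p = 0.00308).

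For 2 partners carotid body was called the lowest of the tissues. The share of all genes called so was not taken. Taken singly, 4.95% of all genes were called lower in carotid body than in the adrenal medulla and 8.28% lower than in the ganglion. Dpp6, which quickens Kv4 gating, measured 10.36, 10.53, 10.53 and 10.20 in adrenal medulla, 9.92, 7.99 and 8.72 in carotid body and 12.23, 11.79, 12.15 and 12.74 in ganglion, a difference of -1.53 from adrenal medulla (limma adjusted p = 0.00958) and of -3.35 from ganglion (limma adjusted p = 4.21e-05). The other was Dlg2, the scaffold PSD-93 that binds Kv1 channels, which was 6.18-fold lower in carotid body than in the adrenal medulla (-2.63, limma adjusted p = 1.83e-05) and 7.20-fold lower than in the ganglion (-2.85, limma adjusted p = 9.45e-06), with adrenal medulla and ganglion overlapping. Epb41l3, the axonal protein 4.1B, was 7.90-fold lower in adrenal medulla than in the ganglion (-2.98, limma adjusted p = 1.58e-05), as Adam22 was by 4.76-fold (-2.25, limma adjusted p = 2.56e-07). Dlg1 was the partner called higher in adrenal medulla than in the ganglion, at 1.06 (limma adjusted p = 1.47e-05). Kcne4 was the partner called higher in carotid body than in the ganglion, a call lost without carotid body replicate 2 or 3, and it lay under the bound in all 3 tissues (4.36, 5.15 and 4.11 in adrenal medulla, carotid body and ganglion), and Kcne1 and Kcne3 were under it as well.

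**Figure D5:**
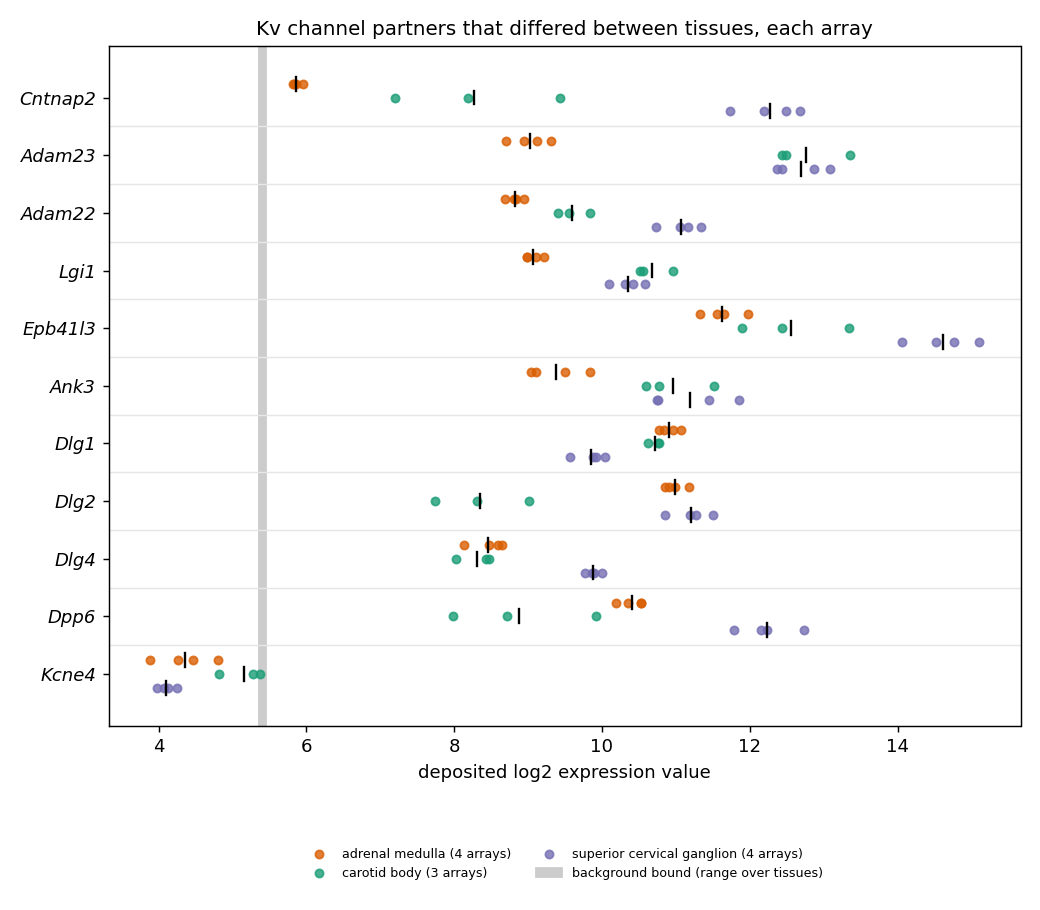
Deposited log2 value of the 11 Kv channel partners called in at least 1 comparison, on each adrenal medulla (orange), carotid body (green) and ganglion (violet) array; black ticks are tissue means and the grey band spans the background bounds. Adam23 and Lgi1 lie together in carotid body and ganglion, Cntnap2 is highest in ganglion (12.27), and Dlg2 is lowest in carotid body (8.35).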

How the data were processed

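Total RNA was measured on 11 Affymetrix mouse transcriptome arrays. The authors deposited log2 values per transcript cluster, and the submitters' processing notes name RMA, which corrects background, equalises the arrays and summarises probes, and the Affymetrix Expression Console; versions and genome build are not given in the sources used here. That the logarithm is to base 2 follows from RMA and is not stated separately. On each array 182 to 276 genes exceeded 16, the most a 16-bit scanner can give on that scale, so an unstated rescaling may have been applied. The number of arrays limits the precision.

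Rows with exactly 1 symbol in the array's annotation were kept (30604), and the brightest row of each gene was used, which left 30142 genes. Symbols of 819 genes were updated through a RefSeq gene table (GRCm38.p6), and 31 of the 43 family genes had a promoter in the RefSeq table. A single limma fit (limma 3.58.1, R 4.3.3; lmFit and eBayes, Benjamini-Hochberg adjustment over all genes) with tissue as the only factor gave the 3 comparisons, and every adjusted p is from it. The script was tested on simulated data. The genes of the family, the partner list and the marker lists were chosen with earlier results of these data known. Any family gene could be named: called genes were given on each array, and the others, for which the rule asked for ranges, mostly by tissue means or as lying under the bound. Of partners and markers, the called genes with the largest differences, at most 4 a comparison, were to be named, and Dlg1, Kcne4, Ank3, Th, Tg and AI504432 were added after their values were seen. Partner, marker and subfamily counts without carotid body replicates 2 and 3 were added after seeing the data. The comparisons of array order within ganglion and within carotid body were also chosen after seeing the data. Alternatives in scaling, filtering, variance model, weighting and left-out arrays were run.

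Replicate numbers were not used as pairs in the main fit. Correlations of same-numbered arrays' deviations from their tissue means ran from -0.17 to 0.25. With 3 or 4 arrays a tissue these cannot show whether same-numbered pools shared mice or processing.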

Additional observations from a re-analysis of the deposited data

Results flagged for a closer look

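Among the 43 genes, 50 sets of 4 arrays with a tissue mean above the background bound were tested for a single array far from the other 3, and 4 were found. For normally spread values without ties, chance gives about 1 in 20. Kcnb2 in ganglion measured 8.81 on replicate 4, against 8.29 to 8.32 on the other 3 arrays. Kcnh2 in ganglion measured 8.16 on replicate 2, against 8.43 to 8.47. Kcng2, a silent subunit, measured 5.83 on adrenal medulla replicate 2, with the other 3 arrays all at 5.72, and 5.93 on ganglion replicate 1, with the other 3 at 5.72. Both Kcng2 sets held identical values on some arrays, so the rate of 1 in 20 does not hold for them. Kcnb2 kept both of its calls without ganglion replicate 4.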

How the results depend on the processing

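The calls were recomputed with median centring, quantile normalization, without genes under the background bound, with array weights, with another variance prior, with all rows of a gene averaged, with protein-coding genes only, with only the arrays of the 2 tissues, with no limit on the size of a difference, with a replicate block, and without each array in turn. No difference of a called gene changed sign, and of the recomputed differences 913 kept their call and 11 lost it. These counts include settings that could not change the result. With no limit on size no call can be lost. The gene filters, row averaging, the variance prior and the use of only 2 tissues left the differences of these genes as they were by construction. Median centring and quantile normalization each gave 2 genes higher in adrenal medulla than in the ganglion and 2 genes highest in adrenal medulla, in place of 1. With no limit on size, carotid body against adrenal medulla had 12 higher and 6 lower (13.7% and 15.6% of all genes under that rule), 5 were higher in adrenal medulla than in the ganglion (15.6%), 4 were highest in adrenal medulla (8.14%) and 2 in carotid body (6.27%). The 99th percentile bound left 12 genes above background in adrenal medulla and 16 in carotid body, in place of 25. The cause of these changes was not tested, beyond what each setting does by its own construction. Leaving out single arrays gave 6 to 10 genes higher and 2 to 3 lower for carotid body against adrenal medulla, 2 higher and 13 to 15 lower for carotid body against ganglion, 1 to 2 higher and 17 lower for adrenal medulla against ganglion, and 12 to 14 highest in ganglion, 1 in carotid body and 1 in adrenal medulla. The replicate block gave 8 genes higher in carotid body than in the adrenal medulla, in place of 7, and left the other counts as they were (1 of 11 arrays correlated best with its own number). Median centring moved the median of all genes from 0.05 to -0.10 for carotid body minus adrenal medulla and the higher share of all calls there from 55.1% to 44.5%; quantile normalization moved the higher share from 40.4% to 51.2% for carotid body minus ganglion and from 43.3% to 53.9% for adrenal medulla minus ganglion. Genes near the bound have little signal over background, so a difference there may be understated.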
